A study of Mus musculus with 2 samples.

Results

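Early T progenitors of the embryonic thymus were compared between the barcode suffixes of a single-cell count table. They were taken as the barcodes in which the UMIs (unique molecular identifiers) of Spi1, Bcl11a, Lyl1, Mef2c and Cd34 together reached 350 CPM, where CPM is UMIs scaled to a total of 1000000 per barcode. The members were thus selected on the levels of these 5 genes, which are described here and support nothing. Cd3g, a chain of the T cell receptor complex, had to lie under 400 CPM, and the mast cell and basophil genes Gata2, Ms4a2 and Fcer1a together under 3 UMIs. Barcodes with fewer than 500 detected genes, over 10% mitochondrial UMIs, or over 1 UMI of the epithelial genes Krt8, Krt18 and Prss16 together were left out beforehand. Of 6057 barcodes, 1078 met the rule, 319 of 2182 with suffix 1 and 759 of 3875 with suffix 2.

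The cells were sorted as DN1, the most immature CD4- CD8- double-negative fraction, from embryonic thymus of the mouse strain labelled 5x polychromILC. This strain carries reporters at innate lymphoid and T cell regulator loci. The samples are labelled E15.5_DN1 and E19.5_DN1, each a single library with no treatment given, while the series title names E15.5 alone. Which suffix belongs to which stage is given by neither the labels nor the table, so values are reported by suffix and stages were not compared. The labels do not say how many embryos were pooled. With 1 library per suffix there is no replicate and no test, and the 95% intervals given cover counting error only. In pooled levels, fewer cells with a transcript and fewer copies per cell cannot be told apart, so shares of cells are given beside the levels.

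Early T progenitors are the first cells to settle in the thymus from fetal liver or bone marrow. Notch1 signalling turns on T cell genes in them, such as Tcf7 and Gata3, while regulators inherited from stem and progenitor cells, among them Spi1 (PU.1), Bcl11a, Lyl1 and Mef2c, are still expressed and are shut off later. At this stage the cells can still give rise to myeloid, dendritic, NK and innate lymphoid cells. Fetal progenitors differ from adult ones in a programme kept by the RNA-binding protein Lin28b, which includes the mRNA-binding proteins of the Igf2bp family, and fetal thymic waves are known for innate-like offspring.

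The libraries held 40203732 UMIs over all barcodes with suffix 1 and 63059128 with suffix 2. The progenitors held 9200568 of them in suffix 1 and 23286623 in suffix 2, with a median of 28641 and 30011 UMIs and of 4908 and 5018 genes per barcode. Their median mitochondrial share was 3.03% in suffix 1 and 3.04% in suffix 2. The suffixes shared 25 barcode sequences. In 21 of these the suffix 1 barcode held over 50000 UMIs and the suffix 2 barcode between 501 and 627. Of the progenitors, 6 in suffix 1 and 1 in suffix 2 carried a shared sequence, and without them 269 genes were at least 2-fold higher in suffix 2 and 62 lower, beside 268 and 62 with them.

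The defining regulators were at similar levels in both suffixes, as the rule made likely. Spi1, an ETS-family factor of myeloid and early lymphoid cells, stood at 146 CPM in suffix 1 and 149.8 in suffix 2. Bcl11a, a zinc-finger repressor, stood at 152 and 158 CPM, and Lyl1, a bHLH factor of progenitors, at 139 and 131. Mef2c, a MADS-box factor of lymphoid priming, stood at 138 and 155 CPM, and Cd34, a surface sialomucin of progenitors, at 123 and 160.4. The median summed level of the 5 genes was 662 CPM per barcode in suffix 1 and 745 in suffix 2. Other progenitor genes that the rule did not use were present too: Kit was at 72.9 and 93.8 CPM, Hhex at 117 and 138, and Notch1 at 117 and 151. Bcl11b, which is turned on when T cells commit, was at 11.4 and 9.88 CPM, against 143 and 169.5 in the Rora-Icos-Il1rl1 barcodes described further on. Just outside the rule, at 300 to 350 CPM of the 5 genes, 21 barcodes of suffix 1 and 27 of suffix 2 had Notch1 at 82.3 and 104 CPM and Kit at 60.3 and 75.4. Just inside it, at 350 to 400 CPM, 21 and 37 barcodes had Notch1 at 111 and 94.0 CPM and Kit at 49.5 and 84.2. The rule rested on under 3 marker UMIs in 12 members of suffix 1 and 21 of suffix 2.

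Progenitors were 16.9% of the kept barcodes in suffix 1 (exact binomial interval 15.3 to 18.7%) and 22.98% in suffix 2 (21.6 to 24.5%). For comparison, 2 other sets were drawn from the same libraries by fixed thresholds. The Rora-Icos-Il1rl1 barcodes, which hold innate lymphoid type 2 genes, numbered 217 and 1398. In them innate type 2 markers summed to 2512 CPM in suffix 1 and 3346 in suffix 2. Gamma-delta T markers summed to 868 and 525 CPM, and NK and innate type 1 markers to 948 and 222. The make-up of this set may thus differ between suffixes, which was not tested. The Nkg7-Xcl1 barcodes, which hold NK and innate lymphoid type 1 genes, numbered 676 and 499. Their depth was lower than that of the progenitors, with medians of 17233 and 11171 UMIs in the former and 11410.5 and 11054 in the latter.

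Most genes had similar levels in the progenitors of both suffixes. Among 10269 genes with at least 50 UMIs over both suffixes, 9939 (96.8%) lay within 2-fold, and the median log2 ratio of suffix 2 over suffix 1 was 0.01. The central 90% of ratios ran from -0.47 to 0.76. At least 2-fold higher in suffix 2 were 268 genes (2.61%), and at least 2-fold lower were 62 (0.604%). In 73 of the higher genes and 24 of the lower ones the whole counting interval lay beyond 2-fold. Most of the higher genes were at low levels: 189 of the 268 stayed under 10 CPM in both suffixes, against 36 of the 62 lower ones. At 10 to 50 CPM the higher genes outnumbered the lower ones too, 67 against 19, and 12 and 7 reached 50 CPM. The 50 UMIs asked of a gene equal 5.43 CPM if they all came from suffix 1 and 2.15 CPM if all from suffix 2. The threshold is thus lower on the suffix 2 side, and its part in the surplus of higher genes was not tested. With at least 200 UMIs per gene, 105 genes were higher and 19 lower.

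**Figure D1:**
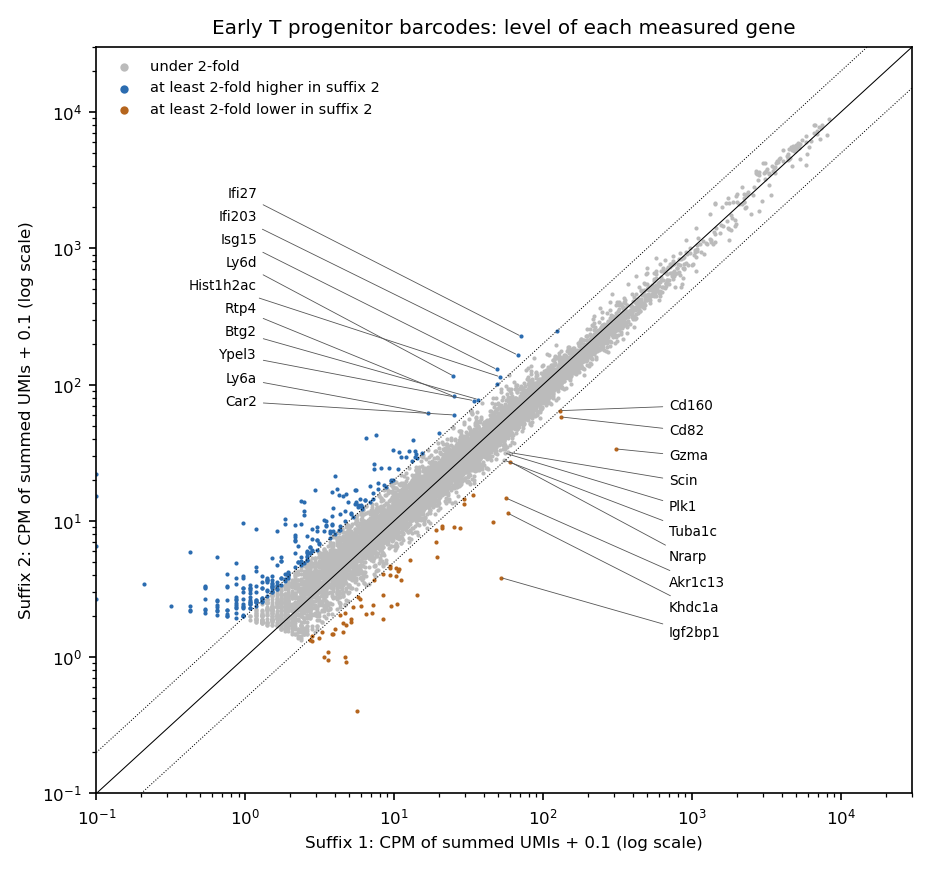
Summed level of each measured gene in early T progenitor barcodes, suffix 1 on the horizontal and suffix 2 on the vertical log axis, in CPM plus 0.1. The dotted lines mark 2-fold, and reporter rows are not drawn. Igf2bp1 and Gzma lie farthest below the line among the labelled genes, and Ly6d, Ly6a, Rtp4 and Ifi27 farthest above it.

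The gene with the lowest ratio among those of at least 50 CPM was Igf2bp1, which encodes an mRNA-binding protein of the fetal programme (chr11:95957163-96005944, GRCm38). It was at 51.7 CPM in suffix 1 (47.2 to 56.6) and 3.74 in suffix 2 (2.99 to 4.61), a 13.8-fold difference. After each barcode was thinned to 13928 UMIs, 52.5% of 278 progenitors in suffix 1 held an Igf2bp1 UMI (46.5 to 58.5%) and 4.34% of 692 in suffix 2 (2.94 to 6.13%). Before thinning the shares were 67.4% and 9.09%. UMIs of the transcript were thus found in a larger share of the progenitors in suffix 1 than in suffix 2. Thinned shares in the other sets were 47.7% (39.0 to 56.6%) and 8.43% for the Rora-Icos-Il1rl1 barcodes and 31.4% and 4.32% for the Nkg7-Xcl1 barcodes. These shares cover only the barcodes deep enough to thin, 132 and 451 in the former set and 245 and 139 in the latter. The suffix 1 intervals of the progenitors and the Rora-Icos-Il1rl1 barcodes overlapped and no set known to lack Igf2bp1 was compared, so, as for Gzma below, the shares are not read as expression by each cell, and the part of RNA from outside the cells was not tested. The difference in level was present in the other sets as well, at 48.5 and 5.84 CPM in the Rora-Icos-Il1rl1 barcodes and 23.9 and 2.10 in the Nkg7-Xcl1 barcodes. Among the progenitors it was as large in barcodes with more Tcf7 UMIs than the pooled median (log2 ratio -3.68) as in the others (-3.82).

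The rest of the fetal Lin28b programme differed much less. Of its 7 measured genes, 0 were 2-fold higher and 1, Igf2bp1, was 2-fold lower, beside 2.61% and 0.604% of all measured genes. The median log2 ratio of the programme was -0.57 beside 0.01 over all measured genes. Lin28b itself, which blocks the maturation of let-7 microRNAs, was at 25.4 CPM in suffix 1 and 13.7 in suffix 2, with an interval of -1.15 to -0.65 for the log2 ratio. A Lin28b UMI was found in 27.0% and 15.9% of thinned progenitors. Arid3a, a DNA-binding protein of fetal-type lymphopoiesis, was at 38.1 and 25.7 CPM. In contrast, Igf2bp3, the second family member measured, was at 91.0 and 83.9 CPM, and Hmga2, a chromatin protein of fetal stem cells, at 46.2 and 47.2. The programme's members thus did not share a size of difference: Igf2bp1 stood apart, Lin28b and Arid3a lay below 2-fold, and Igf2bp3, Hmga1 and Hmga2 were close to equal. In the Rora-Icos-Il1rl1 barcodes 4 of 6 measured members were 2-fold lower (3.74% of all genes there), and in the Nkg7-Xcl1 barcodes 4 of 5 (3.65% of all genes there).

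Gzma, a granzyme of cytotoxic and innate lymphocytes, was at 307 CPM in suffix 1 (296 to 318) and 33.6 in suffix 2 (31.3 to 36.1), a 9.12-fold difference. It was spread over many progenitors: 41.0% of thinned barcodes in suffix 1 and 11.1% in suffix 2 held a UMI (51.4% and 16.6% before thinning). At least 5 UMIs were found in 16.5% (12.4 to 21.4%) and 3.18% (2.003 to 4.77%). In the Rora-Icos-Il1rl1 barcodes, where Gzma is no marker, the share was 36.4% (28.2 to 45.2%) and 8.87% (6.41 to 11.9%) at the same thinned depth. The intervals of the sets overlapped in both suffixes. The Rora-Icos-Il1rl1 barcodes held Gzma at 417 and 71.3 CPM, above the progenitors, so they are no set known to lack it. The overlap thus cannot tell whether progenitors express Gzma, and their share is not read as expression in them. The part of RNA from outside the cells was not tested. In the Nkg7-Xcl1 barcodes, where Gzma is a marker, the level was 3819 CPM in suffix 1 and 982 in suffix 2, with 72.7% and 63.3% of thinned barcodes positive.

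The other innate genes did not share a direction. Gzmb, a second granzyme, was at 46.2 and 9.75 CPM in the progenitors, while in the Nkg7-Xcl1 barcodes it was at 95.7 and 175 CPM, the other way round. Thinned shares with a Gzmb UMI were 27.3% and 9.25% in progenitors and 6.82% and 3.77% in the Rora-Icos-Il1rl1 barcodes. Zbtb16 (PLZF), a factor of innate-like lymphocyte precursors, was at 20.8 and 9.10 CPM. Cd160, an Ig-family receptor of NK and innate cells, was at 129.6 and 64.2 CPM. Its log2 ratio of -1.01 was under 2-fold in 8 alternatives, at -0.90 in the smallest. Id2, the inhibitor of E proteins needed by innate lymphoid cells, was at 23.5 and 22.5 CPM. Of 17 measured genes of the innate programme, 4 were 2-fold lower (Gzma, Gzmb, Zbtb16 and Arg1) and 1 was higher (Id3). Over all measured genes the shares were 0.604% lower and 2.61% higher. Of the 17 genes 7 had a ratio above 0, with a median log2 ratio of -0.06.

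The NK and innate type 1 markers summed to 833 CPM in the suffix 1 progenitors and 427 in those of suffix 2, against 10839.5 and 10179.8 in the Nkg7-Xcl1 barcodes. Of 10 measured markers, 10 had a ratio below 0 and 4 were 2-fold lower (Gzma, Cd160, Gzmb and Ccl5), beside 0.604% of all measured genes. Of the list 0 were 2-fold higher, and the median log2 ratio was -0.68 beside 0.01 over all genes. The median was -0.36 (2 of 9 lower) in thinned barcodes and -1.54 (8 of 10 lower) with the mean of cell CPM. Nkg7, the member with the highest ratio of the list, was at 268 and 263 CPM. Xcl1 was at a low level, 5.76 and 5.63 CPM, with 3.24% and 2.46% of thinned progenitors positive. In progenitors with 0 Gzma UMIs, Igf2bp1 and Ly6d were still on the same side of 2-fold, while Akr1c13 (-0.94), Zbtb16 (-0.74), Car2 (0.83), Ypel3 (0.87), Lmo2 (0.97) and Satb1 (0.97) came under it on the log2 scale.

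Khdc1a, a KH-domain gene also expressed in early embryos, was at 57.7 and 11.3 CPM, a 5.11-fold difference. Its level was lower in the other sets, with 0.530 and 0.449 CPM in the Rora-Icos-Il1rl1 barcodes and 8.66 and 0.323 in the Nkg7-Xcl1 barcodes. Its UMIs were found in 32.7% and 9.39% of thinned progenitors. Akr1c13, an aldo-keto reductase, was at 56.2 and 14.6 CPM, and at 376 and 142 in the Rora-Icos-Il1rl1 barcodes. Cd82, a tetraspanin, was at 131 and 57.8 CPM in the progenitors but at 154 and 123 in the Rora-Icos-Il1rl1 barcodes and 296 and 261 in the Nkg7-Xcl1 barcodes. Esam, an endothelial and stem cell adhesion molecule, was at 14.0 and 2.75 CPM, and 26.3% and 7.25% of the progenitors held a UMI before thinning. All 4 genes were thus at least 2-fold lower in the suffix 2 progenitors. For Cd82 the ratio in the other sets was within 2-fold, and the difference between the sets was not tested.

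**Figure D2:**
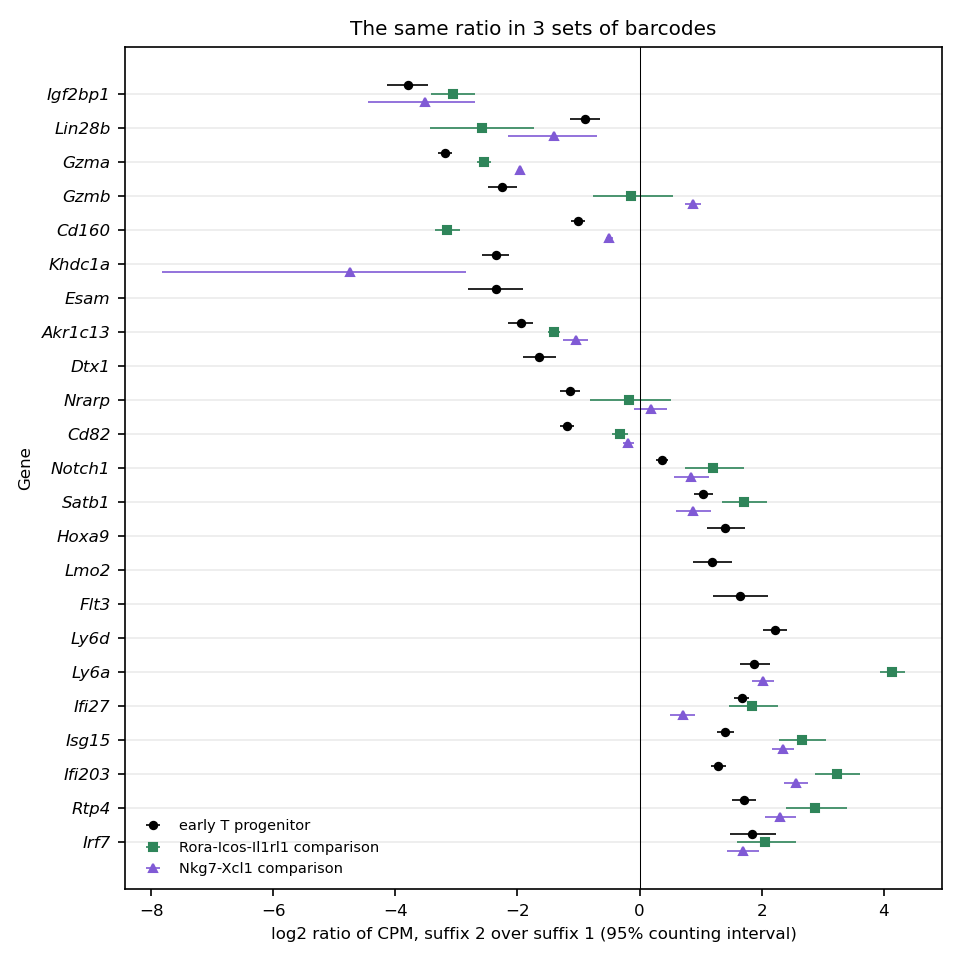
Log2 ratio of suffix 2 over suffix 1, with 95% counting intervals, for 23 genes in the early T progenitor barcodes (circles), the Rora-Icos-Il1rl1 barcodes (squares) and the Nkg7-Xcl1 barcodes (triangles). Symbols are drawn where the set held at least 50 UMIs and neither suffix was at 0. Igf2bp1 lies far left of 0 in all 3 sets and the interferon genes lie right of it, while Gzmb, Nrarp and Cd82 take different places in the 3 sets.

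Interferon-stimulated genes were the list with the most members higher in suffix 2. Interferons signal through the receptor Ifnar1-Ifnar2 to complexes that hold the factor Irf9 and bind a repeated GAAA element in the promoters of antiviral genes. All 51 measured genes of the list had a log2 ratio above 0, with a median of 1.17 beside 0.01 over all genes. At least 2-fold higher were 29 and 0 were lower, beside 2.61% and 0.604% of all measured genes. The 29 genes are 29 of the 268 higher genes in all. Summed, the list stood at 1425 CPM in suffix 1 and 2490.4 in suffix 2. In the Rora-Icos-Il1rl1 barcodes 39 of 47 measured genes were 2-fold higher (6.71% of all genes there) with a median of 2.29, and in the Nkg7-Xcl1 barcodes 38 of 47 (6.83% of all genes there) with a median of 1.74. The progenitors thus had the smallest list median of the 3 sets, with no test of that difference.

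Promoter windows of interferon genes are shown because the members of this list moved together. They are 100-base stretches of the 250 bases before a start given in the RefSeq promoter table on GRCm38.p6, written 5′ to 3′ along the gene's strand. The Ifi203 window lies within that gene's annotated span, chr1:173920400-173942866, and so not before its outer end. Capitals mark each match to GAAANNGAAA or its reverse complement TTTCNNTTTC, with overlapping matches merged.
Isg15, chr4:156200819-156200918, minus strand: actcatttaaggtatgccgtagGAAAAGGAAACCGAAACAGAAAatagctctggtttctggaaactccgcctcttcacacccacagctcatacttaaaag
Ifit1, chr19:34640765-34640864, plus strand: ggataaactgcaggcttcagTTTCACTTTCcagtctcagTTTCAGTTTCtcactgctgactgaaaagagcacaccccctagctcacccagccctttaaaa
Ifit3, chr19:34583353-34583452, plus strand: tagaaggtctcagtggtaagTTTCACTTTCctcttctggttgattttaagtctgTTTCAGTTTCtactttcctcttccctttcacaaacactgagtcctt
Oas1a, chr5:120907526-120907625, minus strand: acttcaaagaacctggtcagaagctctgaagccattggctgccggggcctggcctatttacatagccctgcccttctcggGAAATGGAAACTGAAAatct
Ifi203, chr1:173942493-173942592, minus strand: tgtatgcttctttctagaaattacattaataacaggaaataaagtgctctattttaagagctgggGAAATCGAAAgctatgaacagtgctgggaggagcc
Gbp2, chr3:142620563-142620662, plus strand: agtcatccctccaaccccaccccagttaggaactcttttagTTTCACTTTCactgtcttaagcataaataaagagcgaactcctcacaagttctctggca

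Promoter entries matched 38 of the 51 measured interferon genes, and 20 of these (52.6%) held a match within 250 bases before the start on either strand. Over all measured genes 277 of 8113 matched ones did (3.41%), and over all genes with an entry 936 of 27025 (3.46%). A match describes letters only and is neither a shown site nor a cause. Of the 20 interferon genes with a match, 13 were at least 2-fold higher in suffix 2 and their log2 ratios ran from 0.30 to 4.95. Of the 18 without a match, 8 were, with ratios from 0.02 to 2.61. Genes with the element could thus be near equal: Gbp2, a guanylate-binding protein, had a match and a log2 ratio of 0.30.

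Interferon genes at least 2-fold higher in suffix 2 included some of middle level. Ifi27, a mitochondrial interferon-induced protein, was at 71.0 CPM in suffix 1 (65.6 to 76.6) and 226 in suffix 2 (219.9 to 232), with UMIs in 45.3% and 84.4% of thinned progenitors. Its annotated span overlaps that of Ifi27l2a (6.41 and 40.4 CPM), so reads of the pair may be split by the counting. Isg15, a ubiquitin-like modifier, was at 48.7 CPM (44.3 to 53.4) and 129 (125 to 134), and Ifi203, a DNA-sensing PYHIN protein, at 67.3 and 165. Rtp4, a receptor-transporting protein induced by interferon, was at 81.8 CPM in suffix 2, 3.27-fold above suffix 1, with 22.3% and 55.6% of thinned progenitors positive. Irf7, the factor that amplifies the type I response, was at 7.17 and 25.8 CPM. For each of these genes the intervals of the suffixes did not overlap.

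Some abundant interferon genes stayed within 2-fold. Ly6e, a GPI-linked antiviral protein, was at 497 and 720.0 CPM, and Bst2 (tetherin) at 221 and 321, both 1.45-fold higher. Irf1, a factor of the interferon response, was at 51.0 and 51.7 CPM. Ifit1 and Ifit3, tetratricopeptide proteins that bind foreign RNA, were at low levels, 4.13 and 15.4 CPM and 2.93 and 7.13. Rsad2 (viperin) was at 6.74 and 17.8 CPM. Among progenitors below the median share of G2/M genes, Isg15 (0.84), Ifit1 (0.57) and Rsad2 (0.40) came under 2-fold on the log2 scale, while the median of the list was at least 0.90 in the 18 alternatives. The calls of Isg15, Ifit1 and Rsad2 thus depended on which cells were taken.

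Per cell, the interferon list was shifted at the low, middle and high end of its range. In thinned barcodes the list's UMIs had a 10th percentile, median and 90th percentile of 10, 18 and 28 in suffix 1 and of 17, 30 and 59 in suffix 2. Barcodes above 52 UMIs, the pooled 90th percentile, were 5 of 278 in suffix 1 (1.80%) and 90 of 692 in suffix 2 (13.01%, 10.6 to 15.7%). Without them the median log2 ratio of the list was 0.86, so the other barcodes differed as well. Among these high barcodes themselves, chosen by the list's own UMIs, the median was -0.30. By other splits, the median was 0.95 in barcodes with high Tcf7 and 1.26 in the others, 1.02 with high G2/M UMIs and 1.0 in the others, and 1.06 with and 1.05 without a Gzma UMI.

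**Figure D3:**
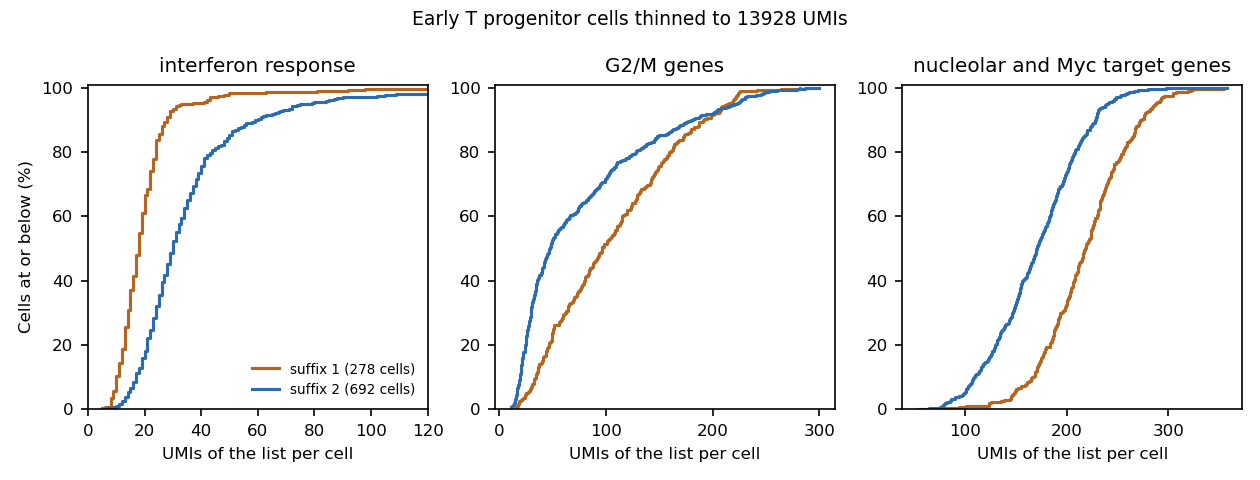
Cumulative share of early T progenitor cells by their UMIs of the interferon, G2/M and nucleolar lists, after thinning to 13928 UMIs per cell. The suffix 2 curve lies right of the suffix 1 curve for the interferon list (medians 30 and 18), and left of it for the nucleolar list (171 and 218.5) and for most of the range of the G2/M list (48 and 97).

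Ly6d, a surface protein of lymphoid progenitors, and Ly6a (Sca-1), of stem cells and interferon-exposed lymphocytes, were also higher in suffix 2. Ly6d (chr15:74762056-74763567, GRCm38) was at 24.9 CPM (21.8 to 28.3) and 115 (111 to 119.9), a 4.64-fold difference. Its UMIs were found in 15.8% and 35.1% of thinned progenitors, and in 4.49% and 0.719% of Nkg7-Xcl1 barcodes. Ly6a, which is also in the interferon list, was at 16.7 and 61.7 CPM. In the Rora-Icos-Il1rl1 barcodes Ly6a was at 54.4 and 959 CPM and in the Nkg7-Xcl1 barcodes at 41.3 and 168, while Ly6d stayed under 5 CPM in both sets. The Ly6d difference was thus seen in the progenitors and the Ly6a difference in all 3 sets.

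Among stem and progenitor regulators, Hoxa9 and Lmo2 were higher in suffix 2. Of 18 measured genes 15 had a ratio above 0, 2 were at least 2-fold higher, beside 2.61% of all measured genes, 0 were lower, and the median log2 ratio was 0.24 beside 0.01 over all genes. Hoxa9, a homeobox gene of stem and progenitor cells, was at 11.1 and 29.4 CPM, with UMIs in 10.1% and 27.3% of thinned progenitors. Lmo2, an adaptor of bHLH and GATA complexes, was at 10.4 and 23.8 CPM. Mycn, a Myc-family factor of progenitors, was at 56.0 and 97.1 CPM, short of 2-fold. Runx1 was at 177 and 209.9 CPM, and Meis1, a Hox cofactor, at 21.7 and 17.6. The group held no member that was 2-fold lower.

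Among 23 measured growth factor and cytokine receptors 20 had a ratio above 0. At least 2-fold higher in suffix 2 were 5 (Flt3, Il6st, Igf2r, Il1rl1 and Il6ra), beside 2.61% of all measured genes, and 0 were lower, with a median log2 ratio of 0.45 beside 0.01. With at least 200 UMIs per gene, 1 of 18 was 2-fold higher. Flt3, the receptor that marks the earliest lymphoid progenitors, was at 5.33 CPM (3.94 to 7.04) and 16.6 (15.0 to 18.4), with 7.55% and 17.8% of thinned progenitors positive. Kit was at 72.9 and 93.8 CPM. Il7r, the interleukin 7 receptor chain, was at 21.1 and 36.5 CPM in the progenitors, at 214 and 726 in the Rora-Icos-Il1rl1 barcodes and at 35.9 and 247 in the Nkg7-Xcl1 barcodes.

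A part of the myeloid genes was higher in suffix 2. Of 21 measured, 5 were at least 2-fold higher (Irf8, Ctss, Ctsg, S100a8 and S100a9), beside 2.61% of all measured genes, 0 were lower, and the median log2 ratio was 0.56. This median was smaller in several alternatives: 0.13 (2 of 18 higher) below the median G2/M share, 0.23 (3 of 19) at 20000 to 40000 UMIs, 0.28 (4 of 19) without each gene's richest barcode, 0.30 (4 of 21) with 0 Gzma UMIs, 0.31 (3 of 19) without Scrublet doublets, and 0.32 (3 of 19) with at least 1000 genes per barcode. Plac8, an abundant gene of progenitors and myeloid cells, was at 1423 and 2105 CPM. Mpo, the granule enzyme myeloperoxidase, was at 122 and 194 CPM, with UMIs in 70.1% and 81.2% of thinned progenitors. The thinned shares were 0.758% and 1.11% in the Rora-Icos-Il1rl1 barcodes and 9.39% in the Nkg7-Xcl1 barcodes of suffix 1. Tyrobp, an ITAM adaptor, was at 318 and 348 CPM, and Fcer1g, a second such adaptor, at 150.3 and 112. S100a9, a neutrophil protein, had 0 UMIs in suffix 1 and 99.8% of its UMIs in a single barcode of suffix 2, so its ratio describes that barcode. Of the 268 higher genes, 6 had over 50% of their UMIs in a single barcode.

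The genes of T cell specification showed no common direction. Of 18 measured T-lineage regulators, 3 were 2-fold higher (Satb1, Ets1 and Ikzf3) and 1 lower (Themis), beside 2.61% and 0.604% of all measured genes. The median log2 ratio of the list was -0.01. Tcf7 (TCF-1), the factor induced by Notch that starts T specification, was at 205 and 164 CPM, and 78.4% and 73.7% of thinned progenitors held a UMI. Gata3 was at 40.0 and 25.6 CPM. Satb1, a chromatin organiser of lymphoid cells, was at 48.7 and 100.6 CPM, with 48.6% and 73.0% of thinned progenitors positive. Sox4 was at 571 and 684 CPM, Myb at 257 and 279, and Runx3 at 119 and 120.5. Tcf7 and Gata3 thus lay on the suffix 1 side and Satb1 and Sox4 on the suffix 2 side. Satb1 was 2-fold higher by a small margin, and came under it (0.96 to 0.98 on the log2 scale) in 3 alternatives.

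Within the Notch pathway the receptor and its feedback targets went different ways. Of 19 measured genes 0 were 2-fold higher and 2 lower, beside 2.61% and 0.604% of all measured genes, with a median log2 ratio of 0.05. Notch1 was at 117 CPM (110.2 to 124) and 151 (146 to 156). Dtx1 (Deltex), a Notch target and E3 ligase, was at 27.5 and 8.80 CPM, and Nrarp, the ankyrin-repeat feedback inhibitor, at 59.6 and 27.1. Thinned shares were 27.7% and 9.68% for Dtx1 and 49.3% and 28.5% for Nrarp. Hes1, the repressor that is the best known target, was at 103 and 107 CPM. So Dtx1 and Nrarp were lower in suffix 2 while Notch1 and Hes1 were not. In barcodes with more Tcf7 UMIs than the pooled median the log2 ratio was -1.45 for Dtx1 and -1.06 for Nrarp, and in the others -1.88 and -1.18. Nrarp was at 30.0 and 34.1 CPM in the Nkg7-Xcl1 barcodes.

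**Figure D4:**
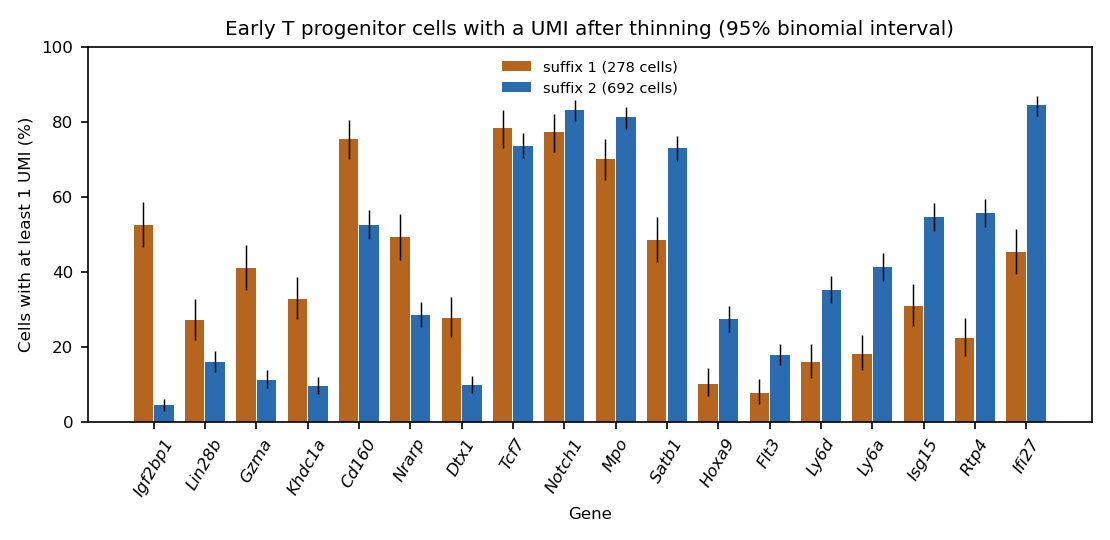
Share of early T progenitor cells with at least 1 UMI of each gene after thinning to 13928 UMIs, as bars with exact 95% binomial intervals, for suffix 1 (278 cells) and suffix 2 (692 cells). Igf2bp1 goes from 52.5% to 4.34%, while Tcf7 is at 78.4% and 73.7%, and Ifi27 goes from 45.3% to 84.4%.

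Genes of recombination and pre-TCR signalling, homing, and other lymphoid fates differed in few members. Of 13 recombination and pre-TCR signalling genes, 1 was 2-fold higher (Cd247) and 0 lower, beside 2.61% higher and 0.604% lower over all genes, and a single call is not read as a result about the list. Lck, the kinase of the pre-TCR, was at 152 and 150.7 CPM. Of 24 homing and adhesion genes 1 was higher and 1 lower, and nothing is read from these counts either. The higher one was Ccr9, the receptor for the thymic chemokine Ccl25, at 0.870 CPM (0.375 to 1.71) and 9.49 (8.28 to 10.8), found in 1.08% and 8.24% of thinned progenitors. The lower one was Esam. Itga4, an integrin chain, was at 309 and 387 CPM. Ccr9 thus had a large ratio at a low level, against 132 and 212 CPM in the Rora-Icos-Il1rl1 barcodes.

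Mitotic genes had ratios below 0 by small amounts. Of 51 measured G2/M genes 49 had a ratio below 0, but 1, Gtse1, was 2-fold lower, beside 0.604% of all measured genes. The median log2 ratio of the list was -0.37. Among members of 20000 to 40000 UMIs 13 of 51 were 2-fold lower, with a median of -0.79. Plk1, the mitotic kinase, was at 55.0 and 31.3 CPM, Tuba1c, a tubulin, at 54.3 and 27.9, and Mki67, the proliferation antigen, at 171 and 129. Per thinned cell the list's median was 97 UMIs in suffix 1 and 48 in suffix 2, and its 90th percentile 191.3 and 181.8. The suffixes thus differed in how many barcodes carried high G2/M levels more than in how high these went: 70.1% of suffix 1 and 41.8% of suffix 2 barcodes lay above the pooled median of 62 UMIs. The S phase list of 45 genes had a median log2 ratio of -0.13, with 0 genes past 2-fold. In the other sets the G2/M median was -0.62 and -0.56.

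Genes of growth and protein folding mostly had ratios below 0 as well, nearly all within 2-fold. Of 23 nucleolar and Myc target genes 21 had a ratio below 0, none of the 23 passed 2-fold, and the median log2 ratio was -0.30. Npm1 (nucleophosmin) was at 4723 and 4024 CPM and Nme1, a nucleoside diphosphate kinase, at 867 and 602. Of 18 heat shock genes 14 lay below 0, with a median of -0.32, and Hspa8, the constitutive Hsp70, was at 3374 and 2443 CPM. The 1 heat shock gene past 2-fold, Hspb1, was higher in suffix 2 (1.92 on the log2 scale) and 0 were lower. Over all measured genes 2.61% were higher and 0.604% lower. Cytosolic ribosomal protein genes, in contrast, summed to 300422 CPM in suffix 1 and 336527 in suffix 2, and 72 of 81 had a ratio above 0 with a median of 0.16. Mitochondrially encoded genes had a median of -0.03.

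Immediate early genes showed no common direction, and a few other genes were higher in suffix 2. Btg2, an antiproliferative gene, was at 36.6 and 77.5 CPM, and Ypel3, a growth suppressor, at 34.1 and 76.1. Btg2 came under 2-fold (0.83 on the log2 scale) among progenitors below the median G2/M share. Egr1, an early growth response factor, was at 13.3 and 39.1 CPM and Jun at 417 and 622. Yet the 28 measured immediate early genes had a median log2 ratio of -0.01. Of these 28, 2 were 2-fold higher (Egr1 and Btg2) and 0 lower, beside 2.61% and 0.604% of all measured genes. Hist1h2ac, a histone gene, was at 51.1 and 114 CPM in the progenitors, and at 60.7 and 41.5 in the Rora-Icos-Il1rl1 barcodes. Car2, carbonic anhydrase 2, was at 25.2 and 59.7 CPM. D cyclins and Cdk inhibitors (13 measured) and MHC class I and antigen processing genes (22 measured) had 0 members past 2-fold, and glycolysis genes 1 of 21, Aldoc, at 2.28 and 4.77 CPM.

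**Figure D5:**
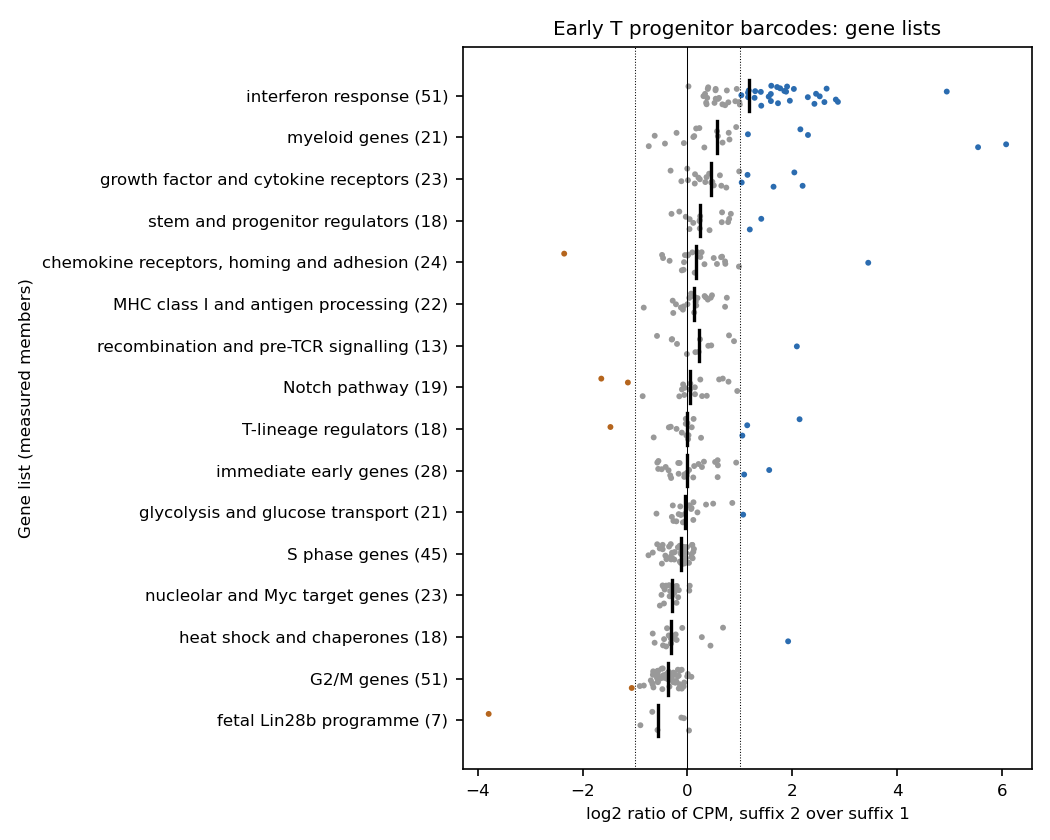
Log2 ratio of suffix 2 over suffix 1 for each measured member of 16 gene lists in early T progenitor barcodes, with the list median as a black bar and dotted lines at 2-fold. Among these 16 lists the interferon list is the one whose median (1.17) lies past the 2-fold line. The G2/M, nucleolar and heat shock lists have medians of -0.37, -0.30 and -0.32. Lists of dendritic and red cell markers, with larger medians (1.71 and 2.05) over 8 and 4 measured members, are not drawn.

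Markers of other cell types were present in the progenitors, and their part in the results was not tested. Hbb-bt, a beta-globin gene of red cells, was at 839.8 CPM in suffix 1 and 517 in suffix 2. Its UMIs were in 56.8% and 44.1% of thinned progenitors and in 1.52% and 3.55% of Rora-Icos-Il1rl1 barcodes. Among thinned Nkg7-Xcl1 barcodes of suffix 1, 24.9% held an Hbb-bt UMI. Red cell markers summed to 171 and 23.9 CPM in the Nkg7-Xcl1 barcodes. In the progenitors the other 3 measured red cell genes were low and at least 2-fold higher in suffix 2, opposite to Hbb-bt. Hbb-y, an embryonic globin gene, was at 0.543 and 5.32 CPM with 90.7% of its UMIs in a single barcode, Hbb-bs at 0.652 and 3.18, and Klf1, a red cell factor, at 0.761 and 2.66. Dendritic cell markers summed to 69.1 and 133 CPM, with 7 of 8 measured genes 2-fold higher, beside 2.61% of all measured genes. Their median log2 ratio was 1.71. In thinned barcodes 2 of 5 measured genes were 2-fold higher, with a median of 0.71. The 7 genes include Flt3, Irf8 and Ccr9, described above. The antigen-presentation gene Cd74, at 4.46 and 15.2 CPM, was found in 3.597% and 0.723% of thinned progenitors, and 23.5% of its UMIs came from a single barcode. Its mean over thinned progenitors was 0.0612 UMIs in suffix 1 and 0.00723 in suffix 2, from 10 and 5 cells with a UMI. Cd74 was thus not higher in suffix 2 among the progenitors deep enough to thin. H2-Ab1, a class II chain, was at 5.87 and 12.9 CPM and came under 2-fold in 4 alternatives, to 0.47 on the log2 scale. The mast cell protease gene Cpa3 was at 281 and 191 CPM, the lowest ratio of its list. Of 6 measured mast cell or basophil genes 3 had a ratio above 0, and 1, the tryptase gene Tpsb2, was 2-fold higher at 2.83 and 16.6 CPM, with 22.03% of its UMIs in a single barcode. Innate type 2 markers summed to 227 and 220.0 CPM, thymic epithelial markers to 51.3 and 52.0 and macrophage markers to 44.2 and 37.4.

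The reporters were low in the progenitors of both suffixes. tagBFP, the Id2 reporter, was at 59.3 CPM in suffix 1 and 47.5 in suffix 2, and was found in 33.1% and 32.4% of thinned progenitors against 97.7% and 97.8% of Rora-Icos-Il1rl1 barcodes. hCD2, the Gata3 reporter, was at 18.0 and 13.2 CPM, beside 40.0 and 25.6 for Gata3. mTeal, the Rora reporter, was at 1.74 and 1.98 CPM, and TdTomato, the Bcl11b reporter, had 3 and 14 UMIs in all. The log2 ratios of tagBFP (-0.32, interval -0.47 to -0.17) and hCD2 (-0.45, -0.73 to -0.17) lay within 2-fold.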

How the data were processed

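The authors deposited raw UMI counts for each gene in each barcode of 10x 3' v3 libraries, per the labels' protocols. Per the submitters' processing notes, Cell Ranger 3.0.2, STAR and the GRCm38 build were used. A label describes lysis to nuclei, so the material loaded may be cells or nuclei. T cell receptor and immunoglobulin chain genes, 1 further locus with its reporter, and some single genes are not reported here.

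UMIs were summed per suffix and scaled to CPM. Levels have exact Poisson, ratios conditional exact and shares Clopper-Pearson 95% intervals, for counting error only. Genes of at least 50 UMIs over both suffixes were called at 2-fold, with no test. Thinning to 13928 UMIs left out 41 and 67 progenitors. It left out 85 of 217 and 947 of 1398 Rora-Icos-Il1rl1 barcodes, and 431 of 676 and 360 of 499 Nkg7-Xcl1 barcodes. Thinned shares in these sets thus describe their deeper barcodes only. In the suffix 2 Rora-Icos-Il1rl1 barcodes, for example, 35.2% held an Mki67 UMI before thinning and 72.7% of those thinned did. Rora-Icos-Il1rl1 barcodes had Rora, Icos and Il1rl1 together at 350 CPM or more and Nkg7 and Xcl1 together under 500 CPM. Nkg7-Xcl1 barcodes had Nkg7 and Xcl1 together at 1000 CPM or more and Rora, Icos and Il1rl1 together under 350 CPM. Both sets had the rule's 5 genes together under 350 CPM. Doublets were kept: Scrublet (scanpy 1.11.5) called 10 of 2147 and 93 of 3368 barcodes, 5 and 29 of them progenitors. Its rate was 0.466% in suffix 1 and 2.76% in suffix 2, and how many doublets it missed was not tested.

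Members and lists were chosen with earlier results of these data known. Named genes were drawn from the rule's markers, the 10 highest and 10 lowest ratios at 50 CPM or more, each list's 4 most abundant and most extreme members, and reporters. Not all of these are named, and some lists are not described. Of the latter, imprinted growth genes had 2 of 6 measured members 2-fold lower and 0 higher, beside 0.604% and 2.61% of all measured genes. Survival and death genes had 1 of 15 lower and 1 higher. Other named genes, such as Lin28b, Lmo2, Satb1, Zbtb16, Irf7, Ifit1, Rsad2 and Gbp2, were chosen after their values were seen. Poisson counts were simulated at the observed totals for 10269 genes, 200 of them changed. In these, 95.5% of intervals held the true ratio, and 99% of genes changed by 1.5 on the log2 scale were called. The intervals assume the same counting model and the simulation held no variation between cells or libraries, so this checks the computation only. Computation used scipy 1.17.1 with numpy 2.4.6 under Python 3.11.15.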

Additional observations from a re-analysis of the deposited data

How the results depend on the processing

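No paired analysis was possible because each suffix is 1 library and the columns carry no replicate number. The counts of genes past 2-fold moved with the depth asked of a gene: at least 200 UMIs gave 105 higher and 19 lower, and at least 10 UMIs gave 624 and 224. The lower genes numbered 122 with the mean of cell CPM and 109 among members of 20000 to 40000 UMIs, against 62 as reported. With a marker sum of at least 500 CPM the progenitors were 13.4% of suffix 1 and 19.01% of suffix 2, and with at least 250 CPM 19.1% and 24.6%. The causes were not tested beyond what these settings change by construction. The other 42 recomputed counts and shares stayed within 1.5 times or within their counting interval, but counts do not show which genes were called. In thinned members 212 genes were higher and 61 lower, of which 114 and 25 were among those reported, and below the median G2/M share 335 and 77, of which 112 and 23 were. Both settings measured fewer genes. Over 18 alternatives the interferon median ran from 0.90 to 1.22, the G2/M median from -0.79 to -0.32 and the fetal median from -0.60 to -0.34. Without the barcode richest in each gene, 266 genes were higher and 49 lower, of which 229 and 47 were among those reported. Removing shared barcodes, asking for 3 marker UMIs, leaving out each gene's richest barcode, and keeping members with 0 Gzma UMIs were chosen after the data were seen.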
